A study of Mus musculus with 30 samples.

Results

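Depletion of WAPL was measured by messenger RNA sequencing in a mouse embryonic stem cell line whose WAPL protein carries an auxin-inducible degron (AID). The 6 libraries titled WAPL-AID, 3 taken untreated and 3 after 24 h of auxin, were chosen by their titles from the 30 libraries of the series, and the effect was followed over all expressed genes. The degron is a tag that lets the plant protein Tir1 mark WAPL for destruction by the proteasome once auxin is present. The series compares such lines for WAPL, for its partners PDS5A and PDS5B, and for these together with the loader NIPBL.

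All lines used here are E14 embryonic stem cells that carry Tir1, grown on gelatin in serum with leukemia inhibitory factor (LIF), the MEK inhibitor PD0325901 and the GSK3 inhibitor CHIR-99021. Each genotype is represented by 1 engineered line. The WAPL line (CMW184) has the genotype WAPL-AID, Tir1, and its treated cells received 500 µM of the auxin indole-3-acetic acid for 24 h. The TIR1 line (EN148.10) carries Tir1 and no degron tag and was sampled untreated and after the same auxin treatment. The PDS5AB line (EN293.1) carries AID tags on PDS5A and PDS5B, with the same auxin treatment. The WAPL-NIPBL line (EN382.1) carries WAPL-AID, NIPBL with an FKBP degron and RAD21 with a Halo tag, and its treated cells received 500 µM auxin with 500 nM dTAG-13, the small molecule that triggers the FKBP degron, for 24 h. Every group had 3 libraries. The labels do not say that these came from separate cultures, so p-values measure only the spread between these libraries.

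Cohesin is a ring-shaped complex of SMC1A, SMC3, RAD21 and a STAG subunit that holds chromatin and extrudes it into loops. NIPBL with MAU2 loads cohesin and drives extrusion, WAPL together with PDS5A or PDS5B releases it from DNA, and CTCF is a barrier at which loops stop. Loss of WAPL is known to leave cohesin on chromatin for longer, to lengthen loops and to draw chromosomes into axial structures. In embryonic stem cells WAPL is also known for its role in keeping the pluripotent state.

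Total counts of the 6 WAPL libraries ranged from 25826388 to 33976968 fragments assigned to genes. Pearson's r of log2 CPM across genes was 0.988 to 0.992 between libraries of the same group and 0.973 to 0.981 between the groups. CPM is a gene's count scaled to a common library size. Mitochondrial genes took 2.53 to 2.92% of the counts in the untreated libraries and 3.06 to 3.55% after auxin, and the part of this shift in any result was not tested. No library stood apart from its group.

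The mRNA of the degraded protein does not report its loss, because the degron acts on the protein. Wapl (chromosome 14, 34673928 to 34747983, plus strand, GRCm38) stood at 163, 187 and 178 CPM in the untreated libraries and at 150, 196 and 167 CPM after auxin. The groups overlapped, with a log2 fold change of -0.04 ± 0.08 (SE; edgeR's quasi-likelihood test, adjusted p = 0.747). Its level in the untreated WAPL line was below that in the untreated TIR1 line by a log2 difference of -0.73 (adjusted p = 5.25e-08), before auxin was added. Over all genes the untreated WAPL and TIR1 lines differed at 2785 of 19868 tested genes (14.0%). Per the library names these untreated libraries belong to different sets, so line and library set cannot be told apart in this contrast.

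Among the 8 tested subunits of cohesin, 3 rose and 2 fell, against 17.0% higher and 15.8% lower among all genes tested. Rec8, the meiotic kleisin, rose from 18.1, 19.8 and 17.7 CPM to 42.7, 33 and 35.3 CPM (log2 1.00 ± 0.11, adjusted p = 4.21e-08). Stag1, 1 of the somatic STAG subunits, rose from 121, 135 and 138 CPM to 149, 185 and 172 CPM (log2 0.36, adjusted p = 0.000968). Its paralog Stag2, the alternative subunit, rose by a log2 of 0.26 (adjusted p = 0.0161), a call that was lost without untreated replicate 1 (adjusted p = 0.0652), without auxin replicate 2 (0.146) and in the fit of the 2 compared groups alone (0.065). The calls of 2 ring subunits were falls. Rad21 fell from 432, 484 and 457 CPM to 356, 421 and 390 CPM (log2 -0.24, adjusted p = 0.00231; 0.11 with the compared groups alone). Smc3 fell by 0.23 on the log2 scale (adjusted p = 0.0248), but the call was lost without untreated replicate 1, auxin replicate 1, untreated replicate 2 or auxin replicate 3 (adjusted p = 0.0558, 0.131, 0.144 and 0.173) or when only these groups were fitted (0.143). Smc1a had a log2 of -0.12 (adjusted p = 0.359). With the replicate number as a block, all 8 subunits were called, 3 higher and 5 lower.

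Of the 15 cohesin regulators, none rose and 6 fell. The largest fall was that of Hdac8, the SMC3 deacetylase, from 4.51, 5.68 and 4.65 CPM to 2.53, 2.55 and 3.30 CPM (log2 -0.82 ± 0.14, adjusted p = 2.93e-05). Pttg1, the securin that restrains separase, fell by 0.46 on the log2 scale (adjusted p = 0.00219), although its groups overlapped. Pds5a fell by 0.36 (adjusted p = 0.00558), a call lost without auxin replicate 1 (adjusted p = 0.0739) or when only the 2 groups were fitted (0.0839). Haspin, a mitotic histone kinase, fell by 0.27 (adjusted p = 0.0144), a call lost without untreated replicate 1 or auxin replicate 3 (adjusted p = 0.152 and 0.139). Sgo1, which shields centromeric cohesin, fell by 0.21 (adjusted p = 0.0147). Leaving out untreated replicate 2, auxin replicate 1 or auxin replicate 3 ended this call, and the adjusted p reached 0.156 over the alternatives. The separase gene Espl1 fell by 0.21 (adjusted p = 0.0263), and its call was lost without any single one of the 6 libraries, with adjusted p up to 0.126. The calls of these 3 genes were also lost when only the 2 groups were fitted. The log2 fold change was 0.01 for Pds5b, 0.09 for the loader Nipbl, 0.05 for its partner Mau2, -0.07 for Ctcf, 0.04 and -0.03 for the SMC3 acetyltransferases Esco1 and Esco2, and -0.03 for the sororin gene Cdca5, and none of these was called.

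Across the 19868 genes tested, 3385 were higher (17.0%) and 3132 lower (15.8%) after auxin in the WAPL line, together 32.8%. A change of at least 2-fold was more often a rise, with 1289 genes higher (6.49%) and 463 lower (2.33%). With the replicate number as a block, since same-numbered libraries deviated together, 8960 genes were called (45.1%), 4386 higher (22.1%) and 4574 lower (23.0%). In the fit of the 2 compared groups alone, the number of genes called lower dropped to 1954 and of those called higher to 2840.

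The largest changes were taken among called genes whose mean count over the 6 libraries was 50 or more, with groups that do not overlap and a symbol that is no clone or predicted name, and some genes of fewer counts had larger fitted values. The largest rises so chosen included genes that were nearly silent in untreated cells. Ighm, the constant region of the immunoglobulin heavy chain (chromosome 12, 113418558 to 113422730, minus strand), had 1 count over the 3 untreated libraries and 395 over the auxin libraries, 5.37, 3.96 and 3.63 CPM. The ratio was 364.9, with a 95% interval of 65.11 to 14450 that covers counting error only. Hs6st2, a heparan sulfate sulfotransferase (chromosome X, 51387212 to 51681856, minus strand), went from 0.0927, 0.0705 and 0.197 CPM to 3.07, 2.99 and 3.33 CPM (log2 4.70 ± 0.38, adjusted p = 7.35e-11). Both genes were close to 0 in every untreated library and present in every auxin library. Cxcl11, an interferon-inducible chemokine (chromosome 5, 92359544 to 92365485, minus strand), stood at 0.309, 0.141 and 0.433 CPM before and 5.02, 4.84 and 5.02 CPM after auxin (log2 4.07 ± 0.39, adjusted p = 1.99e-09).

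A second set of large rises came from genes that already had measurable levels. Htr5a, a serotonin receptor (chromosome 5, 27842149 to 27855088, plus strand), rose from 7.51, 6.07 and 6.53 CPM to 90.5, 56.2 and 75.5 CPM (log2 3.46, adjusted p = 7.09e-13). Slc44a5, a choline transporter-like gene (chromosome 3, 153973436 to 154271722, plus strand), rose from 4.76, 3.17 and 3.19 CPM to 31.7, 35.8 and 31.3 CPM (log2 3.14, adjusted p = 1.95e-15). Chst15, a chondroitin sulfate sulfotransferase (chromosome 7, 132235780 to 132317228, minus strand), rose from 2.38, 2.89 and 2.95 CPM to 27, 28.7 and 23.4 CPM (log2 3.27, adjusted p = 4.21e-15). In all 3 genes the gap between the groups was wider than the spread within either. The rule took only genes whose groups do not overlap, so a gap was set in part by the choice. The others among the 12 largest rises by that rule were Cyp1b1, Cyp1a1, Klhl30, Sprr2b, Gpld1 and the Wnt antagonist Dkk1, with log2 fold changes from 3.24 for Dkk1 to 5.58 for Cyp1b1. Cxcl11, Gpld1, Slc44a5 and Chst15 overlap annotated genes on the opposite strand, and reads were counted without strand, so their values can include reads of those neighbours.

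**Figure D1:**
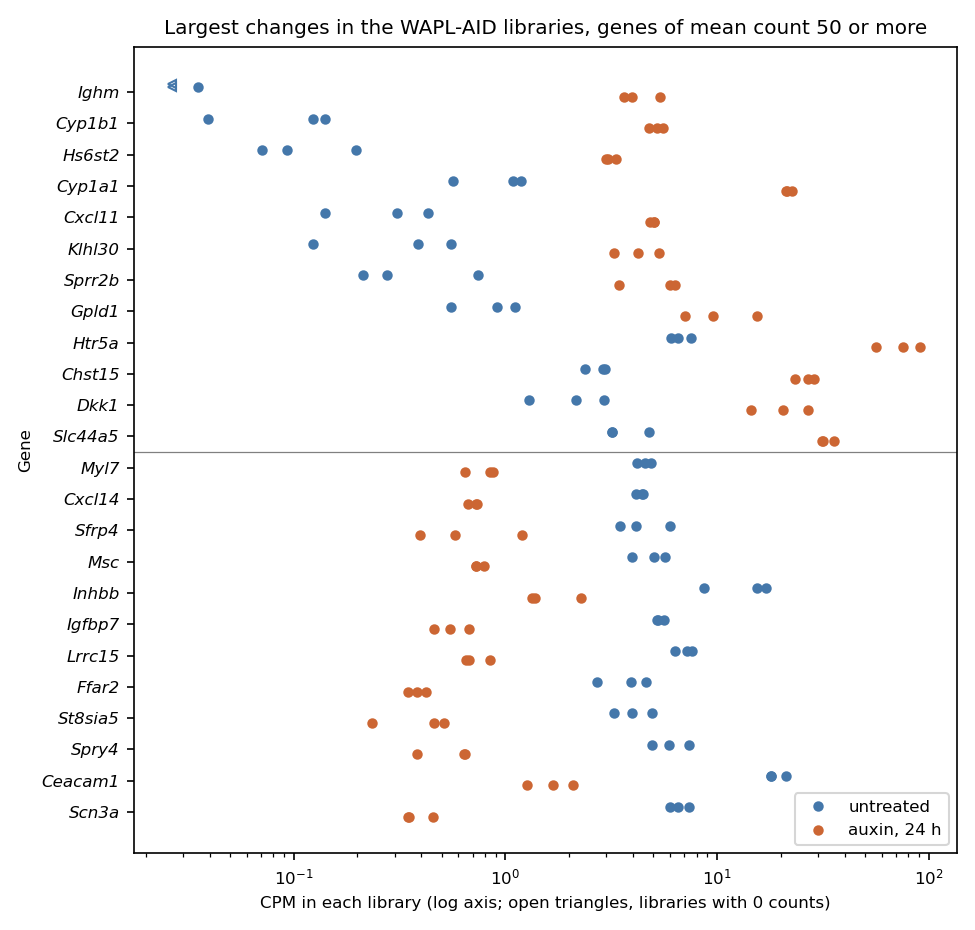
CPM in each WAPL-AID library (log axis; points, libraries; open triangles, libraries with 0 counts) for the 12 largest rises, above the line, and the 12 largest falls, below it, among genes whose mean count was 50 or more. Genes were chosen so that the 3 untreated and the 3 auxin libraries do not overlap. The untreated points of Ighm, Hs6st2 and Cyp1b1 lie under 0.2 CPM and those of Htr5a at 6.07 to 7.51 CPM.

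By the same rule the largest fall was that of Scn3a, a voltage-gated sodium channel subunit (chromosome 2, 65457118 to 65567627, minus strand), from 6.02, 6.52 and 7.40 CPM to 0.345, 0.352 and 0.454 CPM (log2 -4.09 ± 0.26, adjusted p = 3.87e-13). Ceacam1, a cell adhesion molecule (chromosome 7, 25461707 to 25477603, minus strand), fell from 18.0, 21.1 and 18.1 CPM to 1.27, 1.67 and 2.09 CPM (log2 -3.49, adjusted p = 1.68e-14). Auxin in the TIR1 line moved both genes the opposite way, by a log2 of 0.85 for Scn3a and 0.64 for Ceacam1. Lrrc15, a leucine-rich repeat membrane protein (chromosome 16, 30269302 to 30283256, minus strand), fell from 7.20, 7.58 and 6.30 CPM to 0.652, 0.675 and 0.847 CPM (log2 -3.26, adjusted p = 1.22e-11). Inhbb, which encodes the activin B subunit (chromosome 1, 119415465 to 119422248, minus strand), fell from 15.4, 8.67 and 17 CPM to 1.34, 1.38 and 2.27 CPM (log2 -3.03, adjusted p = 1.45e-08). Cxcl14, a chemokine (chromosome 13, 56288643 to 56296551, minus strand), fell from 4.14, 4.41 and 4.45 CPM to 0.728, 0.734 and 0.665 CPM (log2 -2.60, adjusted p = 3.43e-13). The remaining members of the 12 largest falls were Spry4, St8sia5, Ffar2, Igfbp7, Msc, Sfrp4 and the cardiac myosin light chain Myl7, with log2 values from -3.41 for Spry4 to -2.53 for Myl7. Scn3a, Ceacam1, Spry4, St8sia5, Igfbp7 and Msc overlap annotated genes on the opposite strand.

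The direction of the change varied with the level of a gene, taken from the untreated TIR1 libraries so that the grouping shared no library with the comparison. Of 5853 genes under 1 CPM there, 16.9% were called higher and 2.72% lower in the WAPL line. The shares were 24% and 11% for 1 to 10 CPM, and 16.3% and 22.2% for 10 to 100 CPM. Of 2387 genes over 100 CPM, 5.78% were higher and 38.8% lower. A gene with few counts in these libraries passed the count filter only through groups where it was higher, which can include WAPL cells with auxin, so the excess of rises under 1 CPM is fixed in part by the filter. The power to call a fall is limited where a gene has few counts, and the part of that in these shares was not tested. This grouping was added after the data had been seen.

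Long genes were called more often than short ones. The share called was 22.6% for genes that span under 10 kb, 38.0% for 10 to 50 kb, 40.4% for 50 to 200 kb, 48.3% for 200 to 400 kb and 43.0% for over 400 kb. Among genes spanning 200 to 400 kb, 32.4% were higher and 15.9% lower, with a median log2 of 0.19. With genes of a mean under 50 counts left out, the shares called were 34.3, 41.9, 42.6, 55.0 and 54.2% in the same order. In these genes the median log2 over 400 kb was -0.02, against 0.14 with all genes tested, and under 10 kb 491 were higher and 716 lower, against 882 and 859. Among the nuclear chromosomes the share called lay between 27.6% on chromosome 12 and 35.3% on chromosomes 11 and 15, with the X at 29.3% and 18.9% higher against 10.4% lower.

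**Figure D2:**
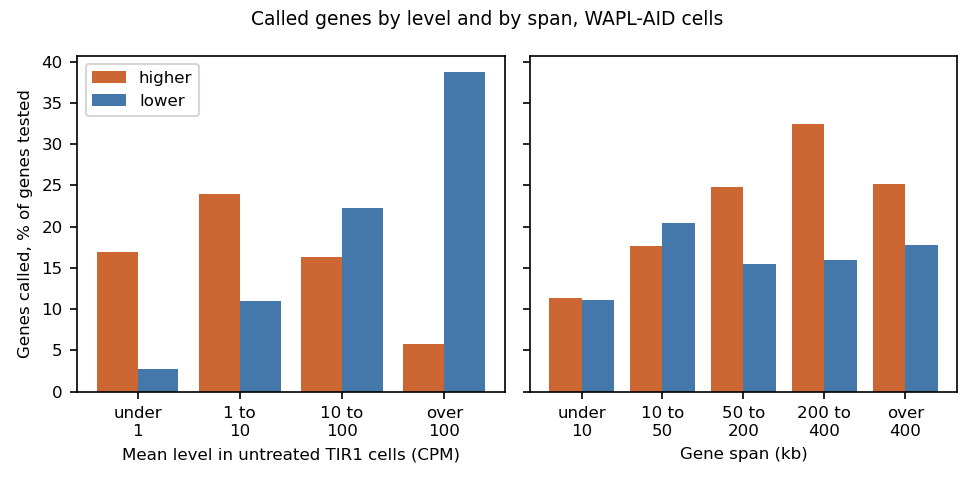
Percent of tested genes called higher or lower in the WAPL-AID line, by mean CPM in untreated TIR1 cells (left) and by gene span in kb (right); both axes of percent start at 0. Over 100 CPM, 5.78% were higher and 38.8% lower, and the share called rose from 22.6% under 10 kb to 48.3% at 200 to 400 kb.

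Genes of the naive pluripotent state, the ground state that LIF and the 2 inhibitors hold, mostly fell: of 16 listed, 12 fell and 1 rose, with a median log2 of -0.47, where the median of all genes was 0.00. Prdm14, a repressor of differentiation genes, fell from 54.9, 51.9 and 51.4 CPM to 22, 21.4 and 22.2 CPM (log2 -1.27 ± 0.08, adjusted p = 3.97e-13). Klf4, a transcription factor under LIF control, fell from a mean of 352 ± 32 CPM to 157 ± 3.66 CPM (SD, n = 3 each; log2 -1.17 ± 0.10, adjusted p = 3.64e-10). Zfp42, also called Rex1, fell from 587, 553 and 552 CPM to 312, 312 and 310 CPM (log2 -0.86, adjusted p = 2.07e-10). All of these separated the groups fully. Tcl1, Klf5 and Klf2 also fell, with log2 values of -0.87, -0.59 and -0.42. Esrrb fell by 0.52 (adjusted p = 2.95e-09) and Nanog by 0.30 (adjusted p = 0.00594).

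In the core pluripotency list 6 of 12 fell and none rose (median log2 -0.33), and 10 fell with the replicate block. Utf1, a chromatin-associated factor of undifferentiated cells, fell from 77.3, 62.6 and 74.9 CPM to 18.5, 14.4 and 18.1 CPM (log2 -2.08 ± 0.21, adjusted p = 5.8e-09), and in the TIR1 line auxin gave a log2 of -1.88. Over all genes, auxin in the TIR1 line gave 10.4% called higher and 9.59% lower. Sox2 fell from 461, 453 and 429 CPM to 211, 240 and 210 CPM (log2 -1.02 ± 0.08, adjusted p = 2.15e-11), while the TIR1 value was 0.11. Pou5f1, which encodes OCT4, fell less, from 804, 683 and 702 CPM to 638, 524 and 504 CPM (log2 -0.39, adjusted p = 0.000114). Dppa4, Trim28 and Sall4 fell, with log2 values of -0.81, -0.52 and -0.39. Of the 10 stem cell markers, 9 fell, and their summed level went from 4350 to 4490 CPM untreated to 3070 to 3230 CPM after auxin. In these bulk samples, fewer cells of a type and less RNA per cell cannot be told apart.

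The formative list, genes of the later epiblast, was split, with 4 of 16 higher and 8 lower. Lef1, a Wnt effector, rose from 7.14, 6.77 and 5.47 CPM to 29.7, 29.8 and 26.3 CPM (log2 2.14, adjusted p = 2.6e-10), and by 2.09 in the TIR1 line. Dnmt3a rose by 0.45 (adjusted p = 0.000195) against -0.55 with auxin in the TIR1 line, and the 2 effects differed (adjusted p = 8.41e-07). Otx2, a driver of the epiblast state, fell from 5.59, 6.88 and 5.59 CPM to 1.92, 3.52 and 1.90 CPM (log2 -1.28, adjusted p = 5.38e-05), and its TIR1 value was -1.19. Fgf5, the usual marker of the formative epiblast, had 11 counts over the untreated and 24 over the auxin libraries and was not called (adjusted p = 0.413).

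Primitive endoderm is the extraembryonic lineage set aside in the blastocyst next to the epiblast. Of 15 tested genes of the endoderm list, 6 rose and none fell (median log2 0.46), and 3 further members had too few counts to be tested. Dab2, an endocytic adaptor of extraembryonic endoderm, rose from 8.77, 5.57 and 6.81 CPM to 44.0, 29.8 and 32.5 CPM (log2 2.32 ± 0.17, adjusted p = 1.22e-11). Pdgfra rose from 1.76, 1.73 and 1.73 CPM to 3.83, 3.49 and 4.35 CPM (log2 1.16, adjusted p = 9.47e-06), with 1.18 in the TIR1 line. Foxa2 rose from 0.309, 0.317 and 0.236 CPM to 1.15, 0.851 and 1.03 CPM (log2 1.78, adjusted p = 0.00152). The summed level of a panel of 7 endoderm markers, of which 5 were called higher, went from 10.1 to 12.6 CPM untreated to 39.2 to 53.9 CPM after auxin, and most of both sums was Dab2. Gata4, a regulator of the lineage, rose from 1.14, 1.73 and 1.26 CPM to 2.45, 2.05 and 2.21 CPM (log2 0.70, adjusted p = 0.0352). That call was lost on leaving out replicate 1 or 3 of either group (adjusted p = 0.144, 0.0855, 0.0951 and 0.063 for untreated 1, auxin 1, untreated 3 and auxin 3). Gata6 was at 0.803, 0.529 and 1.02 CPM before and 1.38, 0.792 and 1.03 CPM after auxin and was not called (adjusted p = 0.31), and Sox17 rose from under 0.25 CPM to 0.484 to 0.575 CPM, a call that was lost without untreated replicate 3 (adjusted p = 0.0647).

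Genes of the other germ layers were mixed. Of 17 primitive streak and mesoderm genes, 5 rose and 3 fell (8 and 3 with the replicate block). Among all genes tested, 17.0% rose and 15.8% fell (22.1% and 23.0% with the block). Wnt3, a ligand of the streak, rose from 0.278, 0.635 and 0.709 CPM to 4.29, 2.90 and 3.39 CPM (log2 2.72, adjusted p = 3.81e-08). T, the brachyury gene, rose from 3, 2.96 and 3.70 CPM to 9.51, 7.86 and 9.46 CPM (log2 1.48, adjusted p = 1.95e-07), and by 2.02 in the TIR1 line. Kdr, a VEGF receptor of early mesoderm, fell from 2.78, 3.53 and 3.74 CPM to 0.805, 0.939 and 0.877 CPM (log2 -1.92, adjusted p = 1.89e-08). Eomes and Mixl1 were not called (adjusted p = 0.173 and 0.218).

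Among 11 neural genes, 3 rose and 2 fell, against 17.0% higher and 15.8% lower among all genes tested. Sox1, the early neurectoderm factor, fell from 8.68, 9.03 and 7.64 CPM to 3.37, 2.90 and 3.84 CPM (log2 -1.33, adjusted p = 6.62e-08). Pax6, an eye and forebrain factor, rose from 0.0618, 0.106 and 0.197 CPM to 1.30, 0.91 and 1.18 CPM (log2 3.22 ± 0.46, adjusted p = 2.06e-06), and its effect differed from those in the TIR1 line (adjusted p = 0.00104) and the PDS5AB line (adjusted p = 0.00534). Otx1, a relative of Otx2, rose from 0.371, 0.212 and 0.472 CPM to 1.73, 1.82 and 2.30 CPM (log2 2.47, adjusted p = 5e-07). The summed level of a panel of 5 neural markers went from 7.82 to 8.9 CPM untreated to 3.92 to 5.39 CPM after auxin, and most of both sums was Sox1. Of the neural genes, Olig2 and Fabp7 had no count in any of the 6 libraries.

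Tfap2c, a transcription factor of trophoblast and germ cells that is also active in naive stem cells (chromosome 2, 172549593 to 172558622, plus strand), fell from 84.0, 72.0 and 89.0 CPM to 18.3, 18.2 and 18.7 CPM. Its log2 fold change of -2.15 ± 0.08 (adjusted p = 3.27e-18) came with full separation of the groups, and in the TIR1 line auxin gave 0.64. The trophoblast and keratin list, Tfap2c included, was split, with 4 of 11 tested higher and 2 lower (all genes tested, 17.0% and 15.8%). Krt7 rose from 2.07, 1.38 and 1.93 CPM to 10, 6.87 and 7.95 CPM (log2 2.20, adjusted p = 2.94e-08), and Krt18 rose by 1.37 (adjusted p = 3.58e-06). Cdx2, the trophectoderm regulator, was not called in the WAPL line (log2 -0.31, adjusted p = 0.289) but rose by 2.78 with auxin in the TIR1 line, and the effects differed (adjusted p = 2.14e-08). Tpbpa, a marker of placental cells, had no count in any WAPL library.

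Two-cell-like cells are a rare state of stem cell cultures in which genes of the 2-cell embryo are read. Of the 11 tested genes of that list, 10 rose and none fell, with a median log2 of 2.12 (9 with the replicate block). Zscan4c rose from 0.927, 0.494 and 0.551 CPM to 2.91, 2.46 and 2.84 CPM (log2 2.03, adjusted p = 5.55e-07), and Zscan4d from 0.834, 0.317 and 0.315 CPM to 3.34, 2.76 and 2.33 CPM (log2 2.45, adjusted p = 1.57e-07). Usp17la, a deubiquitinase gene of a multicopy family, rose from 0.556, 0.176 and 0.197 CPM to 3.91, 2.73 and 2.21 CPM (log2 3.16, adjusted p = 4.93e-08). The list had no member called in the TIR1 line, and the WAPL and TIR1 effects differed at 7 of the 11. Levels stayed low, with a summed level over the list of 2.68 to 4.88 CPM untreated and 14.8 to 20.9 CPM after auxin. Members near 0 before auxin passed the count filter only through groups where they were higher, which can include WAPL cells with auxin. The excess of rises in the list is therefore fixed in part by the filter. These genes are near-identical copies, and fragments that matched several copies were not counted, so the share of each copy is uncertain.

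Markers of fibroblasts, the feeder cells that stem cell cultures can hold, were split. The summed level of a panel of 7 markers, of which 3 were tested and all 3 were called lower, was 12.9 to 13.8 CPM untreated and 4.62 to 5.38 CPM after auxin. Among the falls were the collagen genes Col1a1 (log2 -1.39, adjusted p = 1.33e-06) and Col1a2 (-1.67, adjusted p = 0.00249) and the surface marker Thy1 (-1.78, adjusted p = 8.01e-07). Of the fibroblast list, 6 of 10 had enough counts to be tested, 2 of them higher and 3 lower. The higher members were Pdgfra, which is also an endoderm gene (log2 1.16), and Acta2, an actin of smooth muscle and myofibroblasts (1.57, adjusted p = 0.0347). The call of Acta2 was lost without untreated replicate 1, untreated replicate 2, auxin replicate 2 or auxin replicate 3, with adjusted p up to 0.15.

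ERK signalling is inhibited in these cultures by PD0325901, and its feedback genes report what activity remains. Of 18 listed, 7 fell and 3 rose (8 and 5 with the replicate block). Spry4, an inhibitor of receptor tyrosine kinase signalling, fell from 5.90, 4.94 and 7.36 CPM to 0.383, 0.645 and 0.635 CPM (log2 -3.41 ± 0.45, adjusted p = 5.56e-07). Its TIR1 value was -2.61, and the difference between the effects was not called (adjusted p = 0.385). Etv4, an ETS factor, fell from 47.5, 34.8 and 47.8 CPM to 13.3, 13.1 and 12.7 CPM (log2 -1.74, adjusted p = 2.06e-06), with -1.38 in the TIR1 line. The ERK phosphatase gene Dusp6 fell by 1.36 (adjusted p = 9.1e-06), with -0.88 in the TIR1 line. Spry2 behaved otherwise: it fell by 0.60 in the WAPL line (adjusted p = 0.000191) and the TIR1 value was 0.43, and the effects differed (adjusted p = 3.39e-05).

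Wnt signalling is held active by CHIR-99021, and 6 of 13 genes read as its output rose and 1 fell. Axin2, a negative feedback gene, rose from 98.9, 90.6 and 97.3 CPM to 175, 141 and 158 CPM (log2 0.73, adjusted p = 0.000109), and Sp5 from 57.8, 54.4 and 46.8 CPM to 153, 97.3 and 112 CPM (log2 1.19, adjusted p = 3.58e-06). The TIR1 values were 1.09 for Axin2 and 1.56 for Sp5, and neither difference was called (adjusted p = 0.199 and 0.31). Dkk1, a secreted antagonist, rose from 2.93, 2.15 and 1.30 CPM to 27, 14.5 and 20.4 CPM (log2 3.24 ± 0.29, adjusted p = 6.7e-10), more than in the TIR1 line, where the value was 1.42 (difference, adjusted p = 0.00203). Tcf7 was not called (adjusted p = 0.524).

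The Nodal and activin list was split. Lefty1, a secreted Nodal inhibitor (chromosome 1, 180935022 to 180938400, plus strand), rose from 11.9, 14.5 and 8.82 CPM to 54.9, 61.7 and 34.9 CPM (log2 2.10 ± 0.19, adjusted p = 4.75e-10). With auxin in the TIR1 line the value was -1.53, and the difference between the effects was 3.63 (adjusted p = 6.78e-11). The activin binder Fst fell from 13.7, 14.6 and 14.4 CPM to 3.11, 4.25 and 3.60 CPM (log2 -1.95, adjusted p = 1.84e-10). Nodal itself and Lefty2 were not called (adjusted p = 0.131 and 0.605), and Nodal was called with the replicate block (0.00407). In all, 3 of 11 tested rose and 2 fell, against 17.0% higher and 15.8% lower among all genes tested.

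BMP response genes were split too, with 4 of 12 higher and 2 lower (all genes tested, 17.0% and 15.8%). The inhibitors of DNA binding went in both directions: Id3 fell by 1.39 (adjusted p = 0.000271), and Id2 rose by 0.83 (adjusted p = 2.6e-06). Smad9, a BMP-dependent SMAD, fell from 7.57, 6.91 and 7.83 CPM to 1.57, 3.81 and 2.33 CPM (log2 -1.51, adjusted p = 8.07e-07). In the LIF and STAT3 list, 2 of 11 rose and 3 fell (3 and 5 with the replicate block). The shares over all genes tested were 17.0% higher and 15.8% lower (22.1% and 23.0% with the block). The kinase genes Pim3 and Pim1 fell by 0.66 and 0.48 (adjusted p = 4.43e-09 and 3.36e-05), while the receptor genes Lifr and Il6st were not called (adjusted p = 0.0905 and 0.687), although Lifr was with the replicate block (0.00313).

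Of 17 genes of retinoic acid synthesis and response, 9 rose and 1 fell (10 and 2 with the replicate block), with a median log2 of 0.85. Aldh1a2, which makes retinoic acid, rose from 2.29, 2.40 and 1.26 CPM to 8.36, 5.60 and 5.74 CPM (log2 1.70, adjusted p = 1.22e-06). Stra6, a retinol receptor, rose from 2.01, 1.06 and 2.05 CPM to 6.75, 3.73 and 6.32 CPM (log2 1.71, adjusted p = 0.000123). The binding protein gene Crabp2 rose from 3.55, 2.79 and 4.13 CPM to 12.7, 8.48 and 11.6 CPM (log2 1.64, adjusted p = 9.38e-08), against -1.40 with auxin in the TIR1 line (difference, adjusted p = 3.73e-09). Hoxb1, an early target, had 3 counts over the untreated libraries and 60 over the auxin libraries, a ratio of 18.48 (95% counting interval 6.026 to 92.11). The receptor genes Rarb and Rarg and the catabolic Cyp26a1 were not called (adjusted p = 0.178, 0.117 and 0.0691), and Rarg was called with the replicate block (0.000132).

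Auxin itself is a treatment, and the aryl hydrocarbon receptor (AhR), a sensor of planar aromatic molecules, is a system in which the WAPL and TIR1 lines both moved. The receptor binds DNA at a motif whose core is GCGTG. Below are the 250 bases before the RefSeq start (GRCm38.p6) of 3 of its known targets, shown because they carried the response; capitals mark each GCGTG or its reverse complement CACGC. Cyp1a1 lies at chr9:57697363-57697612 on the plus strand, Cyp1b1 at chr17:79715062-79715311 and Ahrr at chr13:74292332-74292581 on the minus strand, each written 5′ to 3′ along its gene.
Cyp1a1: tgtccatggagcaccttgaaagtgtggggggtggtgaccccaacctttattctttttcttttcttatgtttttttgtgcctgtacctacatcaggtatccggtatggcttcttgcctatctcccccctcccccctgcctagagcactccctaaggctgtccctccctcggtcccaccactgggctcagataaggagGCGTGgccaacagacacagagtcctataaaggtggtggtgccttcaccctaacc
Cyp1b1: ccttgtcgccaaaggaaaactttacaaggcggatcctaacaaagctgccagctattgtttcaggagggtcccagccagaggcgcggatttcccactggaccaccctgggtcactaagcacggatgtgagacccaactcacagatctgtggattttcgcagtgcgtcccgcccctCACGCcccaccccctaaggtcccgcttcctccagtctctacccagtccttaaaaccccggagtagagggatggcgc
Ahrr: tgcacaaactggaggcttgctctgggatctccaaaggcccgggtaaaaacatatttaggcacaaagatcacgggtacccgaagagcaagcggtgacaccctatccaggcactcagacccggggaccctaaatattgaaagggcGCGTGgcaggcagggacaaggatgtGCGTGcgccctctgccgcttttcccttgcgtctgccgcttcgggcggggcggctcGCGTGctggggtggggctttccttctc
The core occurred once in the Cyp1a1 and the Cyp1b1 window and 3 times in that of Ahrr. It was present in 5 of the 7 list members with a window, and in 41.6% of the windows of tested genes, so its presence alone is common. Windows of genes called higher held it in 38.7% and those of genes called lower in 45.4%.

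Cyp1a1, a detoxifying monooxygenase, rose from 1.08, 0.564 and 1.18 CPM to 21.1, 21.4 and 22.7 CPM (log2 4.53 ± 0.18, adjusted p = 1.38e-17) in the WAPL line. In the TIR1 line its mean went from 0.436 to 66.6 CPM (log2 7.24), and the WAPL effect was smaller by 2.72 (adjusted p = 4.9e-07). The related Cyp1b1 rose from 0.124, 0.141 and 0.0394 CPM to 5.21, 5.57 and 4.75 CPM (log2 5.58 ± 0.30, adjusted p = 1.68e-14), against 7.30 in the TIR1 line, a difference that was not called (adjusted p = 0.094). Ahrr, the repressor of the receptor, rose from 0.309, 0.494 and 0.394 CPM to 1.34, 1.88 and 2.24 CPM (log2 2.20, adjusted p = 1.02e-05), against 5.32 in the TIR1 line (difference, adjusted p = 0.000198). Aldh3a1 fell from 3.18, 4.13 and 4.21 CPM to 1.19, 0.88 and 1.30 CPM (log2 -1.77, adjusted p = 5.32e-07). Of the 9 list members, 4 rose and 3 fell in the WAPL line, and 8 rose and none fell in the TIR1 line. Per the library names, the untreated and the auxin-treated TIR1 libraries belong to different sets of libraries, while the WAPL libraries of both treatments belong to 1 set. In the TIR1 line, auxin and library set cannot be told apart, and each comparison with that line carries this limit.

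Genes that copy DNA fell together. Of 32 DNA replication genes, 27 fell and none rose, with a median log2 of -0.40. The helicase subunit genes were among them: Mcm4 fell from 507, 468 and 480 CPM to 343, 342 and 329 CPM (log2 -0.52 ± 0.07, adjusted p = 5.47e-07), and Mcm2 (log2 -0.46, adjusted p = 6e-06) and Mcm3 (-0.42, adjusted p = 3.08e-06) fell as well. Mcm10, which activates the helicase, fell from 265, 228 and 253 CPM to 168, 155 and 159 CPM (log2 -0.63, adjusted p = 1.02e-07). The loader gene Cdc6 fell from 101, 77.1 and 96.0 CPM to 66.6, 63.2 and 64.9 CPM (log2 -0.49, adjusted p = 0.000243). In the TIR1 line 14 of the 32 fell and none rose. The WAPL and TIR1 effects differed at 9 of the 32, against 20.7% of all genes tested. Many members are abundant, and 38.8% of all genes over 100 CPM in untreated TIR1 cells were called lower.

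Many genes of replication carry a site for E2F factors, which drive their expression before S phase. The E2F motif was searched on both strands in its 4 spellings TTTCCCGC, TTTCGCGC, TTTGCCGC and TTTGGCGC, with matches allowed to overlap. Of the 25 list genes with a window, 8 held it. Counted by window, as some genes have several, it was in 8 of the 29 list windows (27.6%), against 2.95% of all windows of tested genes, 4.66% of those called lower and 1.87% of those called higher. The windows of 3 members that held it are shown, 250 bases before the RefSeq start (GRCm38.p6), with matches in capitals: Mcm5 at chr8:75109259-75109508 and Cdc6 at chr11:98907901-98908150 on the plus strand, and Mcm6 at chr1:128359706-128359955 on the minus strand.
Mcm5: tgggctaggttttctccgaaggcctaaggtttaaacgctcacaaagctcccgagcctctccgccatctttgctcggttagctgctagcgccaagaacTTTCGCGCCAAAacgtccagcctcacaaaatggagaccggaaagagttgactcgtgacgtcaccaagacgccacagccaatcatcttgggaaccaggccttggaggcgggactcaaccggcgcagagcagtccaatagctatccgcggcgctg
Mcm6: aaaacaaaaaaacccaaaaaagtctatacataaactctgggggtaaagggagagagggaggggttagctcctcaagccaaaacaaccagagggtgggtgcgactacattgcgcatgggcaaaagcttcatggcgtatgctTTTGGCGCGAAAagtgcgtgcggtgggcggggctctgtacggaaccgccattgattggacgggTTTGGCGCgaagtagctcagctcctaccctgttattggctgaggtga
Cdc6: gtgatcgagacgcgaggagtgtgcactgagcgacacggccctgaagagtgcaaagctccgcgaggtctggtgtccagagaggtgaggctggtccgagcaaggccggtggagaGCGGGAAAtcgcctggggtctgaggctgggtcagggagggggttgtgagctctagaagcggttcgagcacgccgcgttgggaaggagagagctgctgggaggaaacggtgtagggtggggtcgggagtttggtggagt
Mcm5 and Mcm6, chosen for the motif after their values were seen, fell by 0.43 and 0.33 on the log2 scale (adjusted p = 0.000138 and 0.000272). A match is a run of letters and was not tested as a bound site.

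A smaller share of the mitotic genes was called than of the replication genes, and this difference between lists was not tested. Of 26, 7 fell and none rose (median log2 -0.15), and 17 fell with the replicate block. Ccnb2, a mitotic cyclin, fell from 159, 158 and 148 CPM to 136, 122 and 118 CPM (log2 -0.31, adjusted p = 0.000111), and Ccna2 (-0.29, adjusted p = 7.03e-05) and the centromeric histone gene Cenpa (-0.24, adjusted p = 0.00201) fell less. Of 83 cytosolic ribosomal protein genes, 13 fell and none rose, or 59 fell with the replicate block, with a median log2 of -0.13. The share of 13 of 83 is near the 15.8% of all genes called lower, and 28 of the 83 were called lower with auxin in the TIR1 line. Rpl38 fell by 0.40 (adjusted p = 0.000246) and Rpl31 by 0.30 (adjusted p = 0.00322).

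Targets of ATF4, the factor that raises amino acid synthesis and import under stress, were mostly lower. Of 20, 13 fell and 2 rose, and the counts in the TIR1 line were 13 lower and none higher. Slc7a3, a transporter of cationic amino acids (chromosome X, 101079210 to 101086020, minus strand), fell from 88.2, 92.0 and 84.5 CPM to 13.8, 19.8 and 14.8 CPM (log2 -2.44 ± 0.13, adjusted p = 1.68e-14). Its fall was larger than in the TIR1 line, where the value was -1.10 (difference, adjusted p = 1.54e-06). Slc7a5, a transporter of large neutral amino acids, fell from 233, 237 and 235 CPM to 115, 121 and 120 CPM (log2 -0.99, adjusted p = 6.18e-10), and Mthfd2, a mitochondrial folate enzyme gene, fell by 0.82 (adjusted p = 1.02e-07). Atf4 itself (log2 -0.57, adjusted p = 2.24e-06) and Asns (-0.35, adjusted p = 5.29e-05) fell, and the stress gene Ddit3 was not called (adjusted p = 0.673).

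Of 18 targets of p53, 9 rose and 1 fell (median log2 0.30), and 12 rose in the TIR1 line. The p53 antagonist Mdm2 rose from 190, 184 and 189 CPM to 259, 255 and 264 CPM (log2 0.47, adjusted p = 2.91e-07), with 0.46 in the TIR1 line. Ccng1 rose by 0.54 (adjusted p = 1.16e-07) and the death receptor gene Fas by 1.85 (adjusted p = 1.36e-05). Cdkn1a, the cell cycle inhibitor p21, was not called (log2 0.13, adjusted p = 0.259) and its effect was below that in the TIR1 line (adjusted p = 0.0025). Glycolysis genes were mixed, with 2 of 19 higher and 4 lower (2 and 12 with the block). All genes tested gave 17.0% higher and 15.8% lower (22.1% and 23.0% with the block). The glucose transporter genes Slc2a1 and Slc2a3 fell (log2 -0.72 and -0.69, adjusted p = 0.000205 and 0.000219), while Hk1 and Pfkm rose by 0.55 and 0.58 (adjusted p = 3.43e-06 and 7.44e-06).

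**Figure D3:**
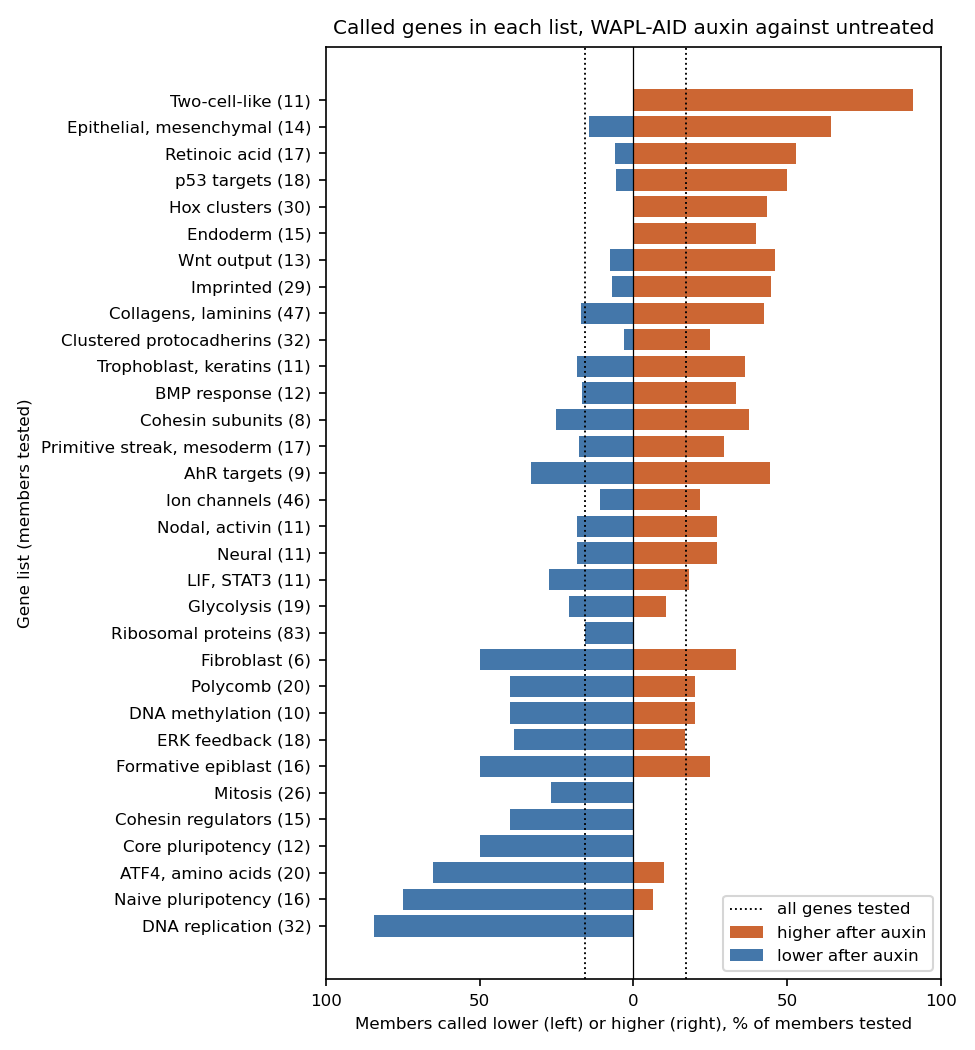
Percent of the tested members of each gene list called higher (right, orange) or lower (left, blue) in the WAPL-AID line; dotted lines give the shares over all tested genes, 17.0% higher and 15.8% lower. The two-cell-like list has 10 of 11 members higher, and the DNA replication list 27 of 32 lower.

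Chromatin regulators went in both directions. Of 20 Polycomb genes, 4 rose and 8 fell. The chromobox genes of the repressive complex diverged: Cbx8 rose by 0.94 on the log2 scale (adjusted p = 0.000128), while Cbx6 fell from 76.4, 74.6 and 78.8 CPM to 45.4, 44.7 and 48.3 CPM (log2 -0.73, adjusted p = 5.54e-09). Ezh2 and Ezh1, the methyltransferases, were not called (adjusted p = 0.725 and 0.0799), and Ezh1 was called higher with the replicate block (0.0157). Among 10 genes of DNA methylation, 2 rose and 4 fell (2 and 7 with the replicate block). Tet2, an oxidase of 5-methylcytosine, fell from 198, 273 and 273 CPM to 63.1, 122 and 128 CPM (log2 -1.25, adjusted p = 8.44e-07), and each auxin library was below its same-numbered untreated library. Uhrf1, which recruits the maintenance methyltransferase, fell by 0.43 (adjusted p = 2.24e-06), and Dnmt1 missed the threshold (log2 -0.17, adjusted p = 0.0556) but was called with the replicate block (0.000808).

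Imprinted genes, read from 1 parental copy, rose more often than they fell: 13 of 29 rose and 2 fell, with a median log2 of 0.37. H19, a long noncoding RNA, rose from 1.85, 2.96 and 2.24 CPM to 6.94, 8.51 and 7.32 CPM (log2 1.69 ± 0.25, adjusted p = 2.69e-06). Its values were -0.87 in the TIR1 line and -0.66 in the PDS5AB line, and the WAPL effect differed from both (adjusted p = 3.03e-05 and 4.3e-05). Cdkn1c, a cell cycle inhibitor of the neighbouring imprinted cluster, rose from 3, 2.40 and 2.24 CPM to 7.63, 9.74 and 8.10 CPM (log2 1.73, adjusted p = 2.3e-09), against -0.71 in the TIR1 line (difference, adjusted p = 2.29e-08). Dlk1 rose by 1.56 (adjusted p = 0.00082), and Igf2, next to H19, was not called (adjusted p = 0.179).

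Clusters of related genes are of interest in a cohesin experiment because their enhancers act over distance. Of 57 clustered protocadherins, whose promoters are chosen by CTCF and cohesin, 32 had enough counts to be tested, 8 rose and 1 fell. Over all genes tested, 17.0% were higher and 15.8% lower. Pcdhga7 rose from 0.34, 0.599 and 0.63 CPM to 1.65, 1.32 and 1.57 CPM (log2 1.54, adjusted p = 1.96e-06), and its effect differed from those in the TIR1 line (adjusted p = 2.01e-05) and the PDS5AB line (adjusted p = 0.00135). Pcdha5 had no count in the untreated libraries and 14 over the auxin libraries, at least 1.43-fold higher than the limit of 3 counts per library. Genes of the alpha cluster share their last exons, as do those of the gamma cluster, and levels were low. Of 39 Hox genes, 30 were tested, 13 rose and none fell (median log2 0.61). In both families, members near 0 in untreated cells passed the count filter only through groups where they were higher. These groups can include WAPL cells with auxin, so the excess of rises is fixed in part by the filter. Hoxb8 rose from 0.154, 0.106 and 0.197 CPM to 0.882, 0.616 and 0.726 CPM (log2 2.25, adjusted p = 0.000215).

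Neighbouring genes were also read by their order on the chromosome. There were 103 runs of at least 4 consecutive tested genes called in the same direction, 49 higher and 54 lower, with 459 genes in all (192 runs with the replicate block). The longest held 9 genes, the Zscan4 cluster on chromosome 7 (10794242 to 11402318), with a median log2 of 2.12. On chromosome 8 (104831572 to 105217989), 6 consecutive genes were higher, among them the carboxylesterase genes Ces2b, Ces2e, Ces2f and Ces2g. Ces2f rose from 0.0927, 0.176 and 0.0394 CPM to 1.50, 1.73 and 2.81 CPM (log2 4.22 ± 0.53, adjusted p = 2.45e-07), and the TIR1 value was 2.98 (adjusted p = 0.0819). The Zscan4 genes are copies of each other, as are the Ces2 genes. Fragments that matched several copies were not counted, so the level of each copy is uncertain.

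Other runs held genes of more than 1 family. On chromosome 11 (100780731 to 101080527), 7 genes were higher, from Stat5b through Stat5a, Stat3 and Cavin1 to Hsd17b1. Stat3, the effector of LIF, rose from 184, 187 and 182 CPM to 238, 243 and 245 CPM (log2 0.39 ± 0.07, adjusted p = 5.34e-05), and Stat5a from 8.06, 8.60 and 7.79 CPM to 14.9, 13.5 and 14.1 CPM (log2 0.79, adjusted p = 1.11e-05). Stat3 and Stat5a overlap each other on opposite strands, and reads were counted without strand, so the rises of this pair may not be separate. On chromosome X (99136130 to 100400762), 6 genes were higher, led by the ephrin gene Efnb1, which rose from 14.3, 14.0 and 15.7 CPM to 58.3, 44.0 and 55.6 CPM (log2 1.85 ± 0.12, adjusted p = 3.44e-13). A run of 6 genes on chromosome 7 (144577318 to 144914637) was lower and held the fibroblast growth factor genes Fgf3, Fgf4 and Fgf15. Fgf3 fell from 6.95, 6.88 and 6.93 CPM to 2.34, 2.67 and 3.17 CPM (log2 -1.33, adjusted p = 9.71e-07), and Fgf4, the main ERK ligand of stem cells, fell from 279, 276 and 269 CPM to 221, 233 and 222 CPM (log2 -0.29, adjusted p = 0.00441). Another lower run of 6, on chromosome 5 (120847367 to 121010092), held 4 interferon-induced Oas1 genes, which are related copies. In it Oas1a fell from 67.6, 54.6 and 52.2 CPM to 35.5, 27.4 and 25.1 CPM (log2 -0.99, adjusted p = 1.93e-07).

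Of 14 epithelial and mesenchymal genes, 9 rose and 2 fell, and genes of both states were among the rises. Cdh1, which encodes E-cadherin, rose from 727, 733 and 741 CPM to 940, 996 and 976 CPM (log2 0.40, adjusted p = 2.93e-07), and Cldn6, a tight junction gene, from 12.2, 11 and 13.3 CPM to 46.1, 29.6 and 38.0 CPM (log2 1.64, adjusted p = 1.44e-10). The mesenchymal factors Zeb2 and Snai2 rose by 2.18 and 1.72 (adjusted p = 1.3e-07 and 2.09e-08). Of 55 collagen and laminin genes, 47 were tested, 20 rose and 8 fell, and the WAPL effect differed from that in the TIR1 line at 22 of the 47. Lamb3, a laminin chain of epithelial basement membranes, rose from 1.36, 1.69 and 1.30 CPM to 12.3, 8.51 and 10.6 CPM (log2 2.85 ± 0.25, adjusted p = 4.32e-10). Among 60 ion channel genes, 46 were tested, 10 rose and 5 fell, shares near the 17.0% and 15.8% of all genes called higher and lower. Beside Scn3a, the potassium channel gene Kcna2 fell from 0.803, 1.69 and 0.669 CPM to 0.153, 0.176 and 0.242 CPM (log2 -2.43, adjusted p = 0.000475), and the calcium channel gene Cacna1g rose by 2.22 (adjusted p = 3.16e-06).

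The change in the WAPL line was then set against that in the TIR1 line, to ask where it went beyond auxin in cells with no tag. The 2 effects share no library, and they come from separate engineered lines, so line and loss of WAPL cannot be told apart in their difference. They differed at 4122 genes (20.7%), 1958 (9.86%) with a higher and 2164 (10.9%) with a lower value in the WAPL line, and at 7034 (35.4%) with the replicate block. Of the 6517 genes called in the WAPL line, 2979 (45.7%) had a called difference, and of the 1752 that changed at least 2-fold, 998 (57.0%). These genes were chosen by the WAPL effect, which is part of the tested difference. Their shares are therefore above the 20.7% of all genes in part through the choice. Scn3a, Ffar2 and Lrrc15 had the largest negative differences among genes whose mean count was 50 or more, -4.94, -4.31 and -4.27 (adjusted p = 1.87e-12, 2.04e-09 and 2.16e-11), and each rose with auxin in the TIR1 line. Hs6st2 and Cxcl11 had the largest positive ones of these genes after Ighm, 4.88 and 4.61 (adjusted p = 0.000318 and 0.000137).

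WAPL and the PDS5 proteins act in the same release step, and the effects of their loss were compared in the same way. Each loss was measured in 1 engineered line, so line and lost protein cannot be told apart in this difference. The effects differed at 2481 genes (12.5%), or 5422 (27.3%) with the replicate block, and 1372 of the 6517 genes called in the WAPL line (21.1%) were among them. Here too, the choice of genes by the WAPL effect raises the last share. Lrrc15 fell in the WAPL line and had a log2 of 0.94 in the PDS5AB line, a difference of -4.21 (adjusted p = 3.89e-10). Cdc42ep1, an effector of the small GTPase CDC42, fell from 7.81, 8.25 and 8.90 CPM to 1.34, 1.82 and 1.39 CPM, with a value of 0.74 in the PDS5AB line (difference -3.18, adjusted p = 9.32e-09). Meltf, an iron-binding membrane protein gene, fell from 2.56, 2.19 and 2.68 CPM to 1.42, 1.32 and 1.51 CPM, with 1.89 in the PDS5AB line (difference -2.69, adjusted p = 6.53e-06). On the other side, the rise of Hs6st2 exceeded that in the PDS5AB line by 2.96 (adjusted p = 0.000139). Tfap2c fell by 2.15 with loss of WAPL against 0.55 with loss of PDS5A and PDS5B (adjusted p = 8.56e-11), whereas for Sox2 (-1.02 against -1.29) and Prdm14 (-1.27 against -1.42) no difference was called (adjusted p = 0.115 and 0.447).

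Loss of NIPBL together with WAPL was the third comparison. A called difference between the WAPL-NIPBL and the WAPL line was found at 1032 genes (5.19%), 602 (3.03%) with a higher and 430 (2.16%) with a lower value in the WAPL-NIPBL line, and at 3070 (15.5%) with the replicate block. Of the genes called in the WAPL line, 975 (15.0%) were among them, and 366 of the 1752 that changed at least 2-fold (20.9%). The WAPL effect is part of this difference, so the choice of genes by that effect raises both shares. Several falls were smaller with NIPBL lost as well, although picking genes by a large difference favours those with a large WAPL effect. Cxcl14 had a log2 of -0.19 in the WAPL-NIPBL line (difference 2.42, adjusted p = 3.37e-08), Msc, a basic helix-loop-helix repressor, -0.37 (difference 2.33, adjusted p = 4.86e-06), and Glod5 0.50 against -2.46 (difference 2.96, adjusted p = 6.41e-07). Rises were smaller too: Nsg2, a neuronal endosomal protein gene, rose from 1.61, 1.90 and 0.905 CPM to 11.7, 8.16 and 6.95 CPM in the WAPL line and had a log2 of 0.14 in the WAPL-NIPBL line (difference -2.44, adjusted p = 6.97e-05). The values of Sprr2b and Rasgrp3 were 0.82 and -0.33 there (differences -2.80 and -2.30, adjusted p = 0.0103 and 0.0054). Sox2 fell by 0.37 in the WAPL-NIPBL line, less than the 1.02 in the WAPL line (adjusted p = 0.000277), and Tfap2c by 1.34 against 2.15 (adjusted p = 1.97e-05). The fall of Utf1 (-2.02 against -2.08) and the rise of Cyp1b1 (5.70 against 5.58) did not differ by the test (adjusted p = 0.963 and 0.961). The WAPL-NIPBL line is a separate clone with a Halo tag on RAD21, and clone and loss of NIPBL cannot be told apart in this difference.

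**Figure D4:**
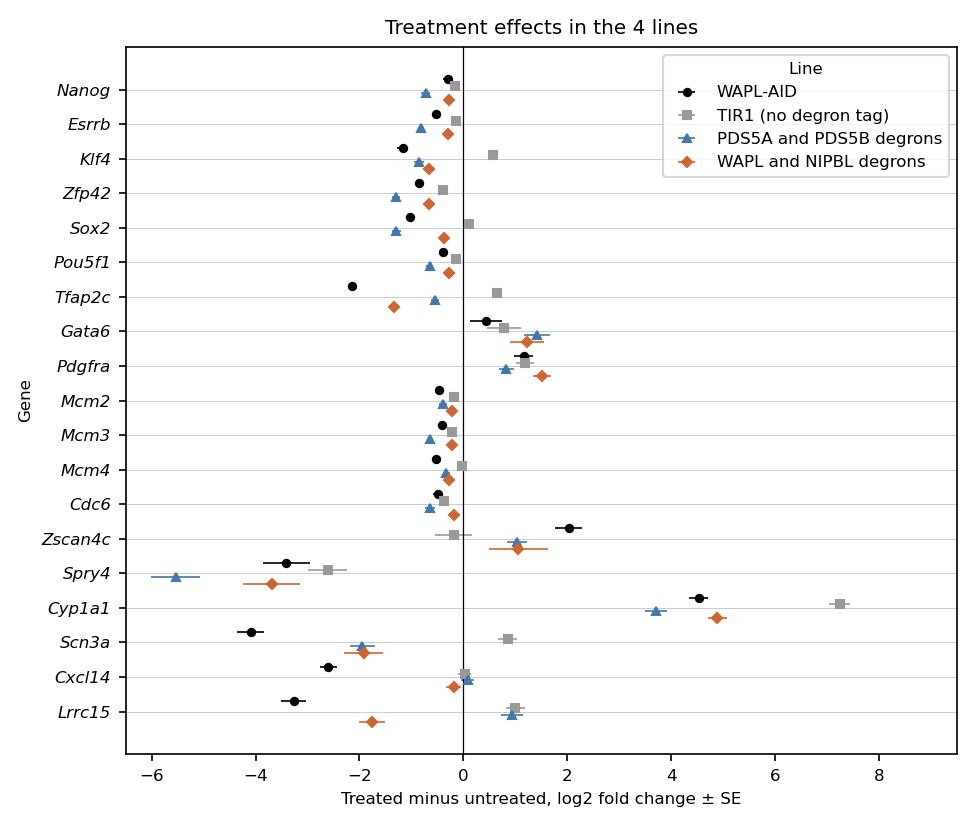
Log2 fold change of treated against untreated libraries with its standard error (bars) in the WAPL-AID, TIR1, PDS5AB and WAPL-NIPBL lines for genes described in the text. Scn3a, Cxcl14, Lrrc15 and Tfap2c lie lowest in the WAPL-AID line, and the rise of Cyp1a1 is largest in the TIR1 line, at 7.24.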

How the data were processed

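Messenger RNA was selected by poly(A) and made into stranded paired-end libraries, per the labels' protocols, although the labels list the molecule as genomic. Per the submitters' processing notes, which give no role or order, the tools were cutadapt, STAR 2.7.7a, featureCounts 2.0.1 and deepTools, with builds GRCm38.p6 and mm10 and the GENCODE M23 annotation. Per the file headers, featureCounts counted fragments per gene over all libraries in 1 deposited table of 55421 genes, with no strand setting and without fragments that matched several places or several genes. The deposited counts are whole numbers with no normalization, and the same table gives gene length as another deposited value. Symbols were matched by gene ID for 55154 genes.

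Counts of all 30 libraries, 10 groups of 3 that share 1 estimate of the spread (20 residual degrees of freedom), were filtered by filterByExpr (minimum count 10), scaled by TMM and fitted with edgeR 4.0.16 (R 4.3.3, limma 3.58.1) by quasi-likelihood tests with Benjamini-Hochberg adjustment over 19868 genes. The threshold for a call was an adjusted p of 0.05, and differences between effects were contrasts of the same fit. Fold changes are the fitted log2 values, and a standard error is the size of the fold change over the square root of F. CPM of genes and lists uses the TMM-scaled library sizes, and summed levels of marker panels use the plain totals. Correlations between libraries used log2 CPM with a prior count of 2. The depth of the 6 WAPL libraries, 25826388 to 33976968 counts, and their number set the precision; a common biological coefficient of variation of 9.15% was estimated. Limits on a count of 0 used 3 counts.

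The replicate numbers are shared between treatments. Same-numbered untreated and auxin libraries of the WAPL line deviated together (r = 0.33, 0.23 and 0.21 across genes), as did those of the PDS5AB line (0.33, 0.11 and 0.30) and the WAPL-NIPBL line (0.19, 0.25 and 0.20), but not those of the TIR1 line (0.06, -0.01 and -0.01). The pairing rests on these correlations and on the titles. Alternatives were a replicate block within each line, DESeq2 1.42.0, relative log expression factors, no count filter, the compared groups alone, a fold minimum of 2 and leaving out each library. The fitting script was tested on simulated counts.

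Genes, gene lists and the comparison itself were chosen with earlier results of these data known. The text names the 12 largest rises and falls among called genes whose mean count was 50 or more, with groups that do not overlap and no clone, predicted, microRNA or pseudogene name, the cohesin genes, the first 3 members and the 4 largest called changes of each list, the 3 largest called differences in each direction between lines under the same limits on counts and names, marker genes, and genes in runs of neighbours. Promoter windows are RefSeq sequences of 250 bases, and the motif and expression-level groupings were added after the data had been seen. The PDS5A, PDS5B and NIPBL degron line entered only the estimate of the spread. Results for some genes of the lists are not reported here.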

Additional observations from a re-analysis of the deposited data

Results flagged for a closer look

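The results below stand out because the effect of treatment differed between 2 lines, by edgeR's quasi-likelihood test of the difference between the 2 log2 fold changes. The WAPL-NIPBL cells received dTAG-13 with the auxin, and the other lines auxin alone. The results are the 3 largest called differences in each direction for each pair of lines, among genes whose mean count was 50 or more over the WAPL libraries.

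Between the WAPL and the TIR1 line, Ighm differed by 7.74 (adjusted p = 0.0424), Hs6st2 by 4.88 (0.000318) and Cxcl11 by 4.61 (0.000137), all higher in the WAPL line. Scn3a differed by -4.94 (adjusted p = 1.87e-12), Ffar2 by -4.31 (2.04e-09) and Lrrc15 by -4.27 (2.16e-11). Ighm had 1 count over the untreated WAPL libraries, so its fitted value depends on how the fit treats counts near 0.

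Between the WAPL and the PDS5AB line, Ighm differed by 4.57 (adjusted p = 0.000387), Hs6st2 by 2.96 (0.000139) and the imprinted H19 by 2.35 (4.3e-05). Lrrc15 differed by -4.21 (adjusted p = 3.89e-10), Cdc42ep1 by -3.18 (9.32e-09) and Meltf by -2.69 (6.53e-06).

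For the WAPL-NIPBL effect minus the WAPL effect, Glod5 differed by 2.96 (adjusted p = 6.41e-07), Cxcl14 by 2.42 (3.37e-08) and Msc by 2.33 (4.86e-06), with the falls of the WAPL line smaller or absent. Sprr2b differed by -2.80 (adjusted p = 0.0103), Nsg2 by -2.44 (6.97e-05) and Rasgrp3 by -2.30 (0.0054).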

How the results depend on the processing

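No gene called and named or listed changed sign under any alternative that was run, but the balance of all calls did: with the replicate block 4386 genes were called higher and 4574 lower, against 3385 and 3132. With the replicate block, the differences from the TIR1 and PDS5AB lines were called at 7034 and 5422 genes and the WAPL-NIPBL minus WAPL difference at 3070, there were 192 runs of neighbours, and the called members were 8 in the cohesin subunit list, 10 in the core pluripotency, 8 in the LIF, 17 in the mitosis, 14 in the glycolysis and 59 in the ribosomal list; it moved no other list's total called by over 1.5 times. In 1 direction it also moved the higher counts of the streak and ERK lists to 8 and 5, and the lower counts of the DNA methylation, LIF, retinoic acid and Hox lists to 7, 5, 2 and 1. The block for the TIR1 line rests on numbers that did not pair its libraries. With a minimum change of 2-fold, 1752 genes were called for the WAPL effect and 1558, 741 and 290 for the 3 differences in the same order. With the compared groups alone, 1954 genes were called lower. With a mean of at least 50 counts, the share called by span was 34.3, 41.9, 42.6, 55.0 and 54.2%. Leaving out 1 library at a time gave 5275 to 6347 genes called for the WAPL effect (2894 to 3330 higher and 2213 to 3017 lower), 3486 to 4319 for the difference from TIR1, 1974 to 2615 from PDS5AB and 713 to 1126 for WAPL-NIPBL minus WAPL. Of 606 genes called and named or listed, 586 stayed called by DESeq2, 603 with relative log expression factors, 562 without the count filter and 510 to 549 with 1 library left out; of 569 that could be fitted in the compared groups alone, 487 did. Genes of few counts limit the calls: a fall cannot be seen in a gene near 0 before auxin.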
